A study of Mus musculus with 9 samples.

Results

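The genes described here write and erase methylation of lysine 27 on histone H3 (H3K27). They are Ezh1, Ezh2, Eed, Suz12, Rbbp4, Rbbp7 and Jarid2 of Polycomb repressive complex 2 (PRC2) and the demethylases Kdm6a and Kdm6b. They were taken by name from a table of read counts, which held all 9 of them among 18956 gene symbols. All 9 passed the filter on low counts and were tested with 18194 genes in all. RNA came from BALB/c mice, from the anterior part of the thalamic paraventricular nucleus (aPVT), which lies at the midline and holds mainly glutamatergic neurons. There were 3 groups of 3 libraries. Non-stressed saline mice had no social defeat and received saline. Stressed saline mice went through 5 days of social defeat, called smSDS by the submitters, and received saline. The SHNK group went through the same defeat and received (2S,6S)-HNK, one of the hydroxynorketamine metabolites of ketamine. Age, dose and sampling time are not stated in the labels, and none of these ties a library to 1 animal, so p-values may measure only technical spread between libraries.

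PRC2 places methyl groups on H3K27, and its trimethylated form marks silent developmental genes. EZH1 or EZH2 is the catalytic subunit, EED and SUZ12 are needed for activity, and RBBP4 or RBBP7 binds histones. KDM6A and KDM6B remove the mark. Neurons that no longer divide are known to rely mainly on EZH1, while EZH2 is linked to dividing progenitors, and PRC2 in adult neurons is known for keeping genes of other cell fates silent. The RNA level of an enzyme is not its activity, and H3K27 methylation itself was not measured here.

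The genes lie on 6 chromosomes in RefSeq for GRCm38.p6. Ezh1 (chr11:101191115-101226463, minus strand), Kdm6b (chr11:69398508-69420367, minus) and Suz12 (chr11:79993106-80034123, plus) share chromosome 11. Kdm6a (chrX:18160862-18279936, plus) and Rbbp7 (chrX:162760372-162779090, plus) are X-linked. The others are Ezh2 (chr6:47530274-47595270, minus), Eed (chr7:89954654-89980976, minus), Rbbp4 (chr4:129307100-129335370, minus) and Jarid2 (chr13:44730774-44921643, plus). The counts are sums over whole genes, so no exon or isoform was resolved.

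RefSeq promoter windows were matched for 8 of the 9 genes, Kdm6b being the exception. The 250 bases before the start are printed for the paralogs Rbbp4 and Rbbp7 and for Ezh1, the most abundant of the enzymes. The SHNK libraries of both paralogs, and of Eed, lay above every non-stressed saline library. Those groups did not overlap for 21.3% of all genes, and none of these genes passed the threshold for a difference. Each printed stretch runs 5′ to 3′ on the gene's own strand, with CCAAT boxes (CCAAT, or ATTGG on the other strand) in capitals. The windows are chr4:129335371-129335620 (minus) for Rbbp4, chrX:162760122-162760371 (plus) for Rbbp7 and chr11:101226464-101226713 (minus) for Ezh1.
Rbbp4: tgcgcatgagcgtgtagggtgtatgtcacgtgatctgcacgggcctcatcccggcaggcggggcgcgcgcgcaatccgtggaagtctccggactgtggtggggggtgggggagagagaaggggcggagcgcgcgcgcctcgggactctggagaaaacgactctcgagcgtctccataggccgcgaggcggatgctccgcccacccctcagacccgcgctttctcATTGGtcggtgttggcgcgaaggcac
Rbbp7: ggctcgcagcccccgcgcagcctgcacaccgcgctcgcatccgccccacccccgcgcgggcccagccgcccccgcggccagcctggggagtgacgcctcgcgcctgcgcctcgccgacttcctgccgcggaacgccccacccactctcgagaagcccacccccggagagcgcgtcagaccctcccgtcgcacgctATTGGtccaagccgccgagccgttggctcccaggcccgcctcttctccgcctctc
Ezh1: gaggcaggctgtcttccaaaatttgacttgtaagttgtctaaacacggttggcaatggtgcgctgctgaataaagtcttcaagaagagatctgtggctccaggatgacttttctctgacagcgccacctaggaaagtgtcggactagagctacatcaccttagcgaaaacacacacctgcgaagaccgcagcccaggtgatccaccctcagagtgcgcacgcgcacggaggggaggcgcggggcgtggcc
The Ezh1 stretch has no capitals because it holds no such box. Over windows of 300 bases, which add 50 bases past the start, CCAAT was found in 37.4% of 32851 promoters and in those of Rbbp4 (1 match), Rbbp7 (2), Ezh2 (3), Eed (1), Suz12 (1) and Jarid2 (1 in each of 2 windows). The E2F words TTTGGCGC, TTTCCCGC, TTTCGCGC and TTTGCCGC, searched on both strands, were in 2.26% of promoters and in those of Ezh2 and Suz12, with 1 match each. The cyclic AMP response element TGACGTCA (1.79% of promoters) and the NRF1 motif (0.971%) were in 0 windows of these genes. The windows held 17 (Eed) to 41 (Suz12) CpG sites, with 39 in Rbbp4, 38 in Rbbp7 and 23 in Ezh1, against a median of 7 over all promoters. A word match describes the letters only.

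Total counts ran from 32307869 to 51569143 per library. The 13 aPVT marker genes were measured in all libraries, with summed levels of 2623 to 3017 CPM (counts scaled by library size) in non-stressed saline, 2414 to 3045 in stressed saline and 2495 to 2845 in SHNK. Markers of the habenula, which lies beside the aPVT, were higher in stressed saline. For 13 of 16 such markers measured, the summed CPM was 630 to 661, 769 to 1319 and 663 to 851, in the same group order. Chrnb4, Chrnb3 and Slc18a3 had no deposited counts. The deposited counts held no zero for any gene, so a level above 0 in every library was fixed for the habenula and aPVT markers measured. The mean log2 CPM of the habenula markers, which weights abundant and scarce ones alike, was 3.24 ± 0.54, 5.24 ± 0.77 and 1.74 ± 0.29 (SD, n = 3). It put SHNK below non-stressed saline where the sum put it above. The 10 ependymal markers summed to 100.1 to 120, 185 to 280 and 106 to 161 CPM, and 10 astrocyte markers to 4668 to 4888, 4054 to 5276 and 3648 to 3971. The 10 general neuron markers summed to 8253 to 8678, 7641 to 7831 and 8832 to 9737 CPM, without overlap between groups. By their mean log2 CPM, the lowest SHNK library (9.156) was beside the highest non-stressed saline library (9.154). In bulk tissue, fewer cells of a type and less RNA per cell cannot be told apart. SHNK replicate 3 was the lowest of the 9 libraries for 19.3% of genes and the highest for 19.5%.

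The 9 genes covered a wide range of abundance. Levels were compared as CPM per kilobase of the median coding transcript (GENCODE vM21), as the mean ± SD over 9 libraries. The histone-binding subunits led, with Rbbp7 at 138 ± 9.62 and Rbbp4 at 97.0 ± 5.08 CPM per kilobase. Eed followed at 28.0 ± 2.21, then Ezh1 at 11.2 ± 0.94, Jarid2 at 7.96 ± 0.55, Suz12 at 3.84 ± 0.23 and Kdm6a at 3.07 ± 0.39. Ezh2, at 1.26 ± 0.25, and Kdm6b, at 0.626 ± 0.082, were lowest. For each neighbouring pair of these 9 the ranges over libraries did not overlap. With the longest coding transcript as divisor, Suz12 (3.81) and Jarid2 (3.31) changed places and their ranges overlapped, and the ranges of Kdm6a (1.67) and Ezh2 (1.08) overlapped too, while the other positions held. Both subunits shared with other chromatin complexes thus stood above the PRC2-specific ones in every library on either length. Rbbp4 and Rbbp7 also belong to the NuRD, Sin3, NURF and CAF-1 complexes, so their level is not that of PRC2.

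**Figure D1:**
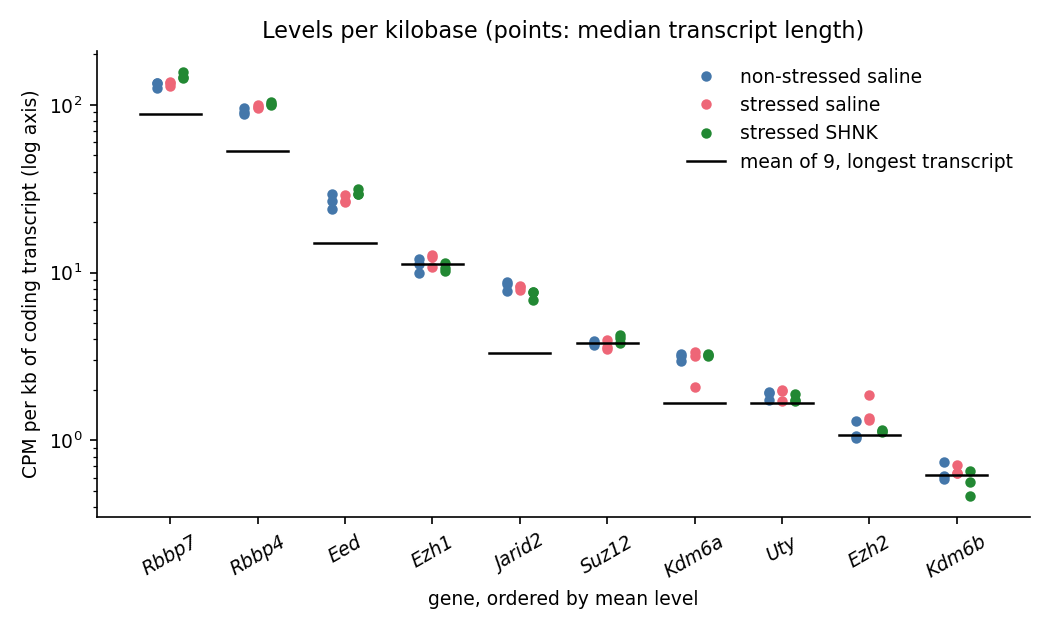
Levels of the 9 genes and of Uty, the Y-linked copy of Kdm6a, in CPM per kilobase of coding transcript on a log axis. Points are single libraries coloured by group and divided by the median transcript length; bars are means of 9 libraries with the longest transcript. Rbbp7 (138) and Kdm6b (0.626) are the ends of the order.

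None of the 9 genes passed an adjusted p of 0.05 in any comparison (edgeR quasi-likelihood test, Benjamini-Hochberg over 18194 genes). For stressed saline against non-stressed saline the count was 0 of 9, against 1.17% of all genes called, and 0 of 9 had an unadjusted p under 0.05 (9.45% of all genes). For SHNK against stressed saline it was 0 of 9 against 6.41%, with 1 of 9 at the unadjusted threshold (23.3%). For SHNK against non-stressed saline it was 0 of 9 against 0.0055%, with 1 of 9 unadjusted (18.3%). The test of any difference among the groups called 0 of 9 against 4.88%, with 1 of 9 unadjusted (22%). Each unadjusted pass was Rbbp7. DESeq2 and limma voom also called 0 of 9 in each comparison. The median log2 fold change of the 9 was 0.04, 0.06 and 0.04 in the order given, beside -0.02, -0.01 and 0.00 over all genes. The median size of change, without sign, was 0.04, 0.15 and 0.15 beside 0.11, 0.19 and 0.17. All 3 comparisons share libraries, so their values are not independent.

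The same fits give intervals for the size of change. These rest on the spread between libraries, so the limit stated for the p-values holds for them too. The 95% interval of the fold change lay within 1.5-fold in either direction for 8, 7 and 8 of the 9 genes. The exceptions were Ezh2 after stress, Ezh2 and Kdm6b for SHNK against stressed saline, and Kdm6b for SHNK against non-stressed saline. Those genes also had the lowest counts, from 79 to 158 reads for Ezh2 and 114 to 225 for Kdm6b. Libraries of the compared groups did not overlap for 2 genes after stress (12.9% of all genes), 4 for SHNK against stressed saline (30.4%) and 4 for SHNK against non-stressed saline (21.3%).

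**Figure D2:**
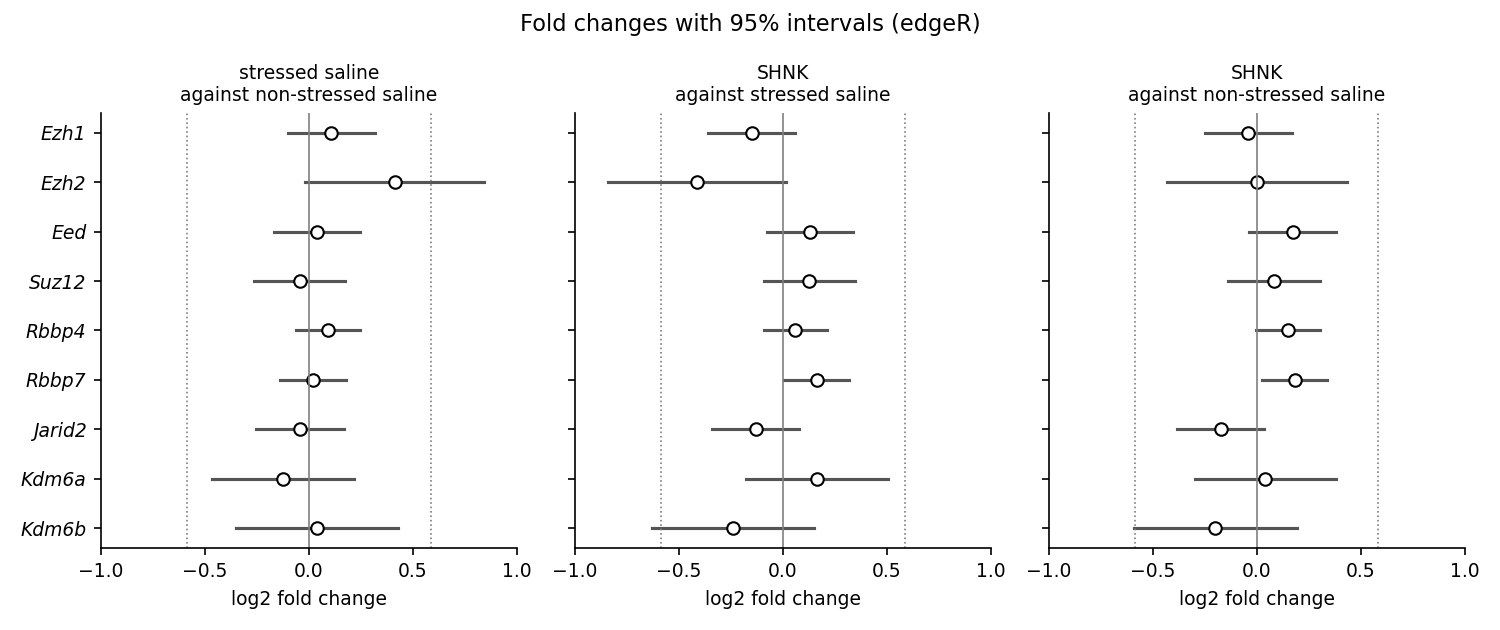
Log2 fold changes (circles) of the 9 genes in the 3 comparisons with their 95% intervals from edgeR (lines). Dotted verticals mark a 1.5-fold change; the Ezh2 interval passes them for both comparisons with stressed saline and that of Kdm6b for both comparisons with SHNK.

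Ezh1 encodes the PRC2 catalytic subunit typical of neurons. Its level was 50.3, 41.7 and 46.9 CPM in non-stressed saline, 51.6, 53.2 and 45.0 in stressed saline, and 44.5, 43.0 and 47.6 in SHNK, each in the order of replicates 1 to 3. The groups overlapped in every comparison. The log2 fold change was 0.11 ± 0.098 (SE) after stress (adjusted p = 0.876), -0.15 ± 0.097 for SHNK against stressed saline (adjusted p = 0.385) and -0.04 ± 0.098 for SHNK against non-stressed saline (adjusted p = 0.865), by edgeR. On the fold scale the widest of these intervals, for stress, ran from 0.932 to 1.25.

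Ezh2 encodes the other catalytic subunit and showed the largest fold changes of the 9 genes. It was measured at 3.14, 2.47 and 2.53 CPM in non-stressed saline, 3.27, 3.17 and 4.45 in stressed saline, and 2.69, 2.70 and 2.77 in SHNK. Every stressed saline library was above every library of the other groups, and stressed saline replicate 3 was the highest of all. Group means were 2.71 ± 0.37, 3.63 ± 0.71 and 2.72 ± 0.042 CPM (SD, n = 3). The fold was 1.33 (95% interval 0.988 to 1.79) for stress, with an adjusted p of 0.564 in edgeR. For SHNK against stressed saline it was 0.752 (0.559 to 1.01), with an adjusted p of 0.236, and both estimates rest on the same stressed libraries. SHNK and non-stressed saline differed by 0.00 ± 0.20 on the log2 scale, with an interval from 0.741-fold to 1.35-fold. Without stressed saline replicate 3, the log2 changes of Ezh2 shrank from 0.41 to 0.24 and from -0.41 to -0.24, with adjusted p of 0.824 and 0.549 in edgeR. Of 10 markers of cycling cells, 7 were measured, with summed CPM of 57.6 to 65.4, 61.2 to 64.6 and 68.9 to 81.1 in the 3 groups. Mki67, Top2a and Ccnb1 were the markers not measured, and the part of cycling cells in the Ezh2 values was not tested.

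The balance of both catalytic subunits was taken within each library, which does not depend on scaling between libraries. Ezh1 had 16.0 to 18.6 reads for each Ezh2 read in non-stressed saline, 10.1 to 16.8 in stressed saline and 15.9 to 17.2 in SHNK, with no correction for length. The mean log2 ratio of Ezh2 to Ezh1 was -4.10 ± 0.11, -3.80 ± 0.40 and -4.05 ± 0.056 (SD, n = 3). Stressed saline replicate 3 held the ratio of 10.1, and the other stressed libraries, at 15.8 and 16.8, were beside the non-stressed ones. The excess of Ezh1 over Ezh2 was thus present in all 9 libraries, and its narrowing under stress came from 1 library.

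Eed binds the trimethylated mark and relays it to the catalytic subunit. Its level was 29.7, 32.5 and 26.6 CPM in non-stressed saline, 32.1, 29.5 and 29.6 in stressed saline, and 32.6, 32.6 and 34.8 in SHNK. SHNK libraries were above all others, the closest being non-stressed saline replicate 2. The log2 fold change was 0.13 ± 0.096 against stressed saline (adjusted p = 0.449) and 0.17 ± 0.097 against non-stressed saline (adjusted p = 0.369), by edgeR. Stress itself gave 0.04 ± 0.097 (adjusted p = 0.982).

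Suz12, the subunit that holds PRC2 together, was at 16.1, 17.0 and 16.4 CPM in non-stressed saline, 17.3, 15.5 and 15.2 in stressed saline, and 17.7, 18.3 and 16.4 in SHNK. The groups overlapped throughout. Its log2 fold changes were -0.04 ± 0.10 for stress, 0.13 ± 0.10 for SHNK against stressed saline and 0.08 ± 0.10 for SHNK against non-stressed saline, with adjusted p from 0.499 to 0.981 in edgeR.

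Rbbp4 and Rbbp7 are close paralogs that bind histones. Rbbp4 was at 218, 211 and 230.4 CPM in non-stressed saline, 241, 231 and 230.6 in stressed saline, and 239, 244 and 249.6 in SHNK. Non-stressed libraries lay below all libraries of the other groups, though stressed saline replicate 3 was only just above non-stressed replicate 3. The difference was 0.09 ± 0.071 on the log2 scale for stress (adjusted p = 0.837) and 0.15 ± 0.071 for SHNK against non-stressed saline (adjusted p = 0.279), neither past the threshold in edgeR.

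Rbbp7 was at 193, 192 and 179 CPM in non-stressed saline, 195, 192 and 185 in stressed saline, and 209, 207 and 224 in SHNK. All 3 SHNK libraries exceeded the 6 others, and both saline groups overlapped. The summed general neuron markers were likewise highest in the SHNK libraries (8832 to 9737 CPM against 7641 to 8678 in the other 6). Against non-stressed saline, 6 of these 10 markers were above 0 and 4 below, with a median log2 fold change of 0.01 and 0 past the threshold. Against stressed saline 8 were above 0 and 2 below, and 3 passed. The part of these markers in the Rbbp7 and Eed values was not tested. The Rbbp7 fold was 1.12 (95% interval 1.004 to 1.25) against stressed saline and 1.13 (1.02 to 1.26) against non-stressed saline. The edgeR p was 0.0435 and 0.0267 before adjustment and 0.198 and 0.209 after it, so the difference did not pass over all genes. Without SHNK replicate 3, the highest library, the log2 fold change was 0.12 against stressed saline and 0.14 against non-stressed saline, with adjusted p of 0.502 and 0.577. Within libraries the log2 ratio of Rbbp7 to Rbbp4 was -0.22 ± 0.12, -0.30 ± 0.027 and -0.19 ± 0.040 (SD, n = 3) in the 3 groups. In SHNK against non-stressed saline the estimates of both genes, 0.15 and 0.18, differed by less than their standard errors together.

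Counts of these paralogs may carry reads from neighbours or copies. Rbbp4 shares 18.1% of its exon bases with the opposite-strand genes Gm26722 and Sync, Rbbp7 shares 5.98% with Txlng, and Eed shares 6.82% with E230029C05Rik. Whether counting used strand is not given in the sources used here. Txlng, whose product binds syntaxins, had a log2 fold change of 0.42 ± 0.16 for SHNK against non-stressed saline (edgeR adjusted p = 0.191), in the direction of Rbbp7, and its part in the Rbbp7 value was not tested. Sync had -0.13 ± 0.33 and E230029C05Rik -0.04 ± 0.34 in that comparison, both smaller than their standard errors. Their part in the Rbbp4 and Eed values was not tested either. Of 50-base words in Rbbp7 transcripts, 6.97% also occur in the processed pseudogene Gm6382. The figure was 0.842% for Rbbp4, 0.193% for Kdm6a, shared with Uty, and 0% for the other 6 genes.

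Jarid2 recruits PRC2 to chromatin and adjusts its activity. It was at 21.2, 19.5 and 21.8 CPM in non-stressed saline, 20.7, 19.7 and 20.4 in stressed saline, and 19.2, 19.0 and 17.2 in SHNK. The SHNK libraries were below all others, the reverse of Eed and Rbbp7. The log2 fold change was -0.13 ± 0.098 against stressed saline (adjusted p = 0.460) and -0.17 ± 0.098 against non-stressed saline (adjusted p = 0.370), by edgeR. Stress gave -0.04 ± 0.098 (adjusted p = 0.981).

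**Figure D3:**
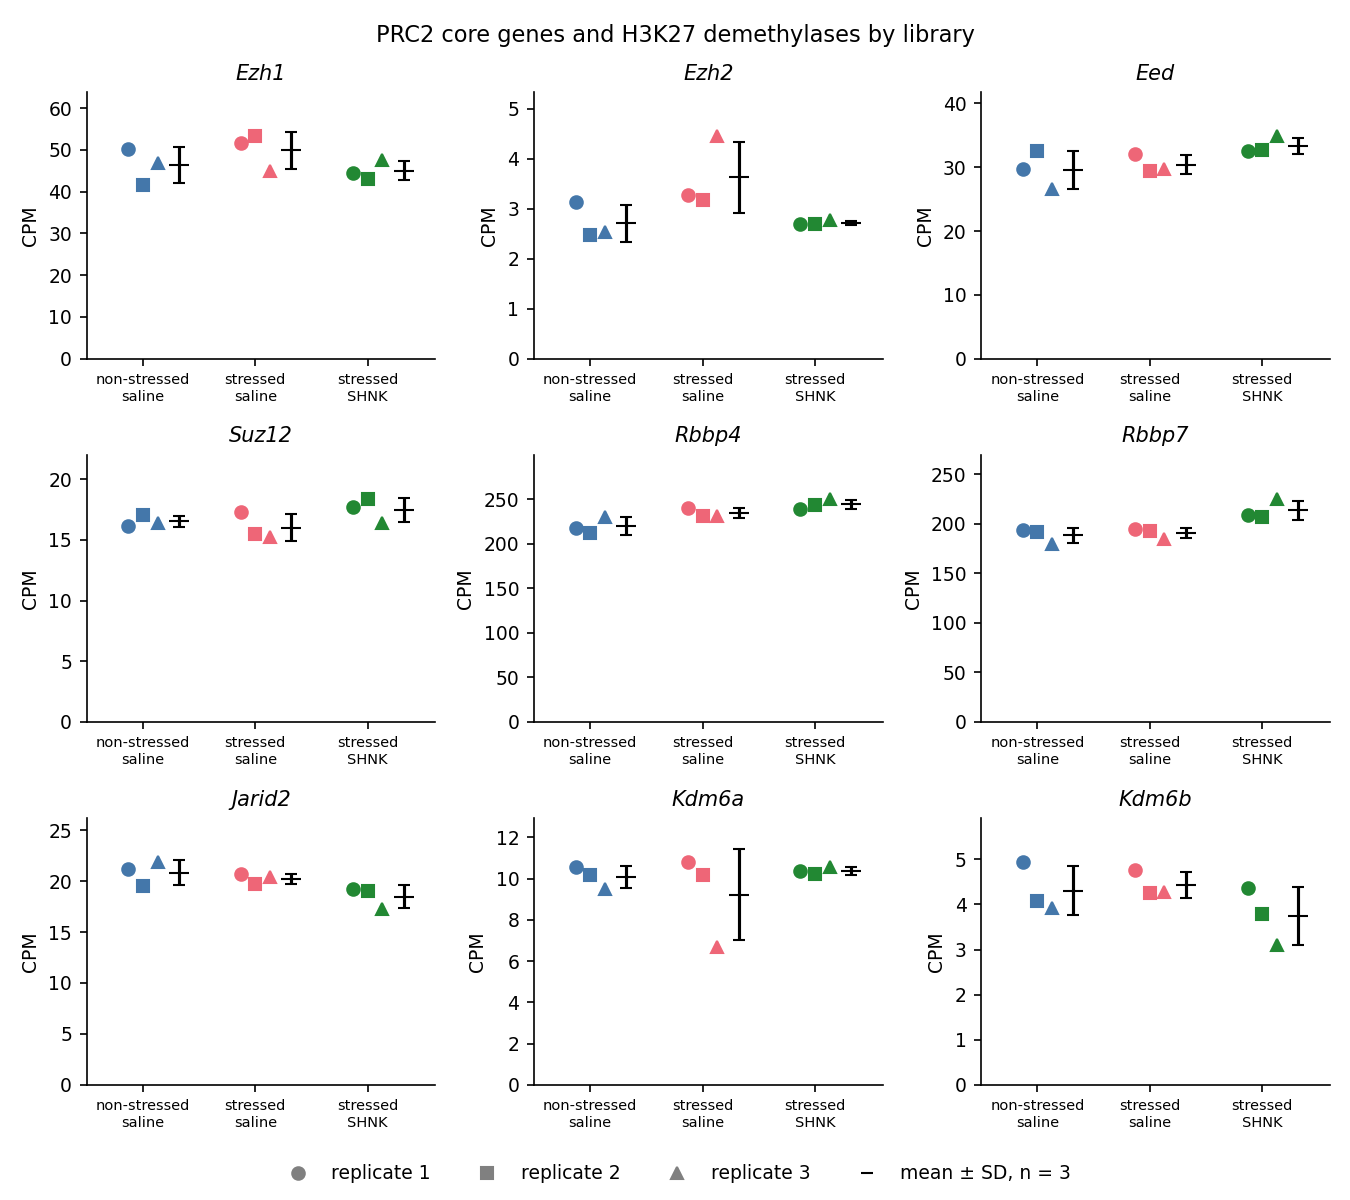
CPM of each gene in the 9 libraries, by group (colour) and replicate (marker), with the mean ± SD of 3 libraries beside the points; axes start at 0. Ezh2 is highest and Kdm6a lowest in stressed saline replicate 3 (4.45 and 6.70 CPM), and Rbbp7 is highest in the SHNK libraries (207 to 224 CPM).

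Kdm6a, also called UTX, is the X-linked H3K27 demethylase and a part of the MLL3 and MLL4 complexes. It was at 10.5, 10.2 and 9.52 CPM in non-stressed saline, 10.8, 10.2 and 6.70 in stressed saline, and 10.3, 10.2 and 10.6 in SHNK. The other 8 libraries lay between 9.52 and 10.8 CPM, while stressed saline replicate 3 lay below them with 238 reads. By edgeR, the log2 fold change was -0.12 ± 0.16 for stress (adjusted p = 0.940), 0.16 ± 0.16 for SHNK against stressed saline (adjusted p = 0.588) and 0.04 ± 0.16 for SHNK against non-stressed saline (adjusted p = 0.927). Without that library the first of these became 0.06 and the second -0.02, so both signs rest on it. The same library had the highest Ezh2 level, and among the 9 libraries it was lowest for 13.5% and highest for 9.70% of genes. It also had the highest oligodendrocyte marker mean, 7.85 on the log2 CPM scale. By summed CPM of those markers it was second, at 9355 against 9553 in stressed saline replicate 1, which had the highest Kdm6a. The part of these markers in either value was not tested.

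Uty, the Y-linked copy of Kdm6a with weak demethylase activity, gave a second reading. It was at 9.10, 9.02 and 8.19 CPM in non-stressed saline, 9.17, 9.40 and 7.996 in stressed saline, and 8.87, 8.04 and 8.15 in SHNK, which overlapped throughout. Its log2 fold changes lay between -0.09 and 0.02, with edgeR adjusted p of 0.738 or more. The log2 ratio of Kdm6a to Uty within a library was 0.20 ± 0.023 in non-stressed saline, 0.03 ± 0.26 in stressed saline and 0.31 ± 0.081 in SHNK (SD, n = 3). Kdm6a was above Uty in all libraries but stressed saline replicate 3, where the log2 ratio was -0.25. Per kilobase of the median transcript Uty stood at 1.85 ± 0.12, between Kdm6a and Ezh2. Its range overlapped that of Ezh2, which it exceeded in 8 of 9 libraries, and with the longest transcripts it overlapped those of both.

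Kdm6b, also called JMJD3, is the demethylase known for induction by inflammatory and activity signals. It was at 4.93, 4.07 and 3.93 CPM in non-stressed saline, 4.75, 4.26 and 4.28 in stressed saline, and 4.37, 3.78 and 3.10 in SHNK. SHNK replicate 3 was the lowest, and the groups overlapped in every comparison. The log2 fold change was 0.04 ± 0.18 for stress (adjusted p = 0.991), -0.24 ± 0.18 for SHNK against stressed saline (adjusted p = 0.471) and -0.20 ± 0.18 for SHNK against non-stressed saline (adjusted p = 0.608), by edgeR. Without SHNK replicate 3 these SHNK values were -0.12 and -0.08, and without non-stressed saline replicate 1 the comparison with that group gave -0.09. On the fold scale the intervals for SHNK ran from 0.647 to 1.11 and from 0.664 to 1.14, so a fall of a 1.5-fold size lay within both.

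Summed demethylase reads were compared with summed methyltransferase reads in each library. The log2 ratio of Kdm6a plus Kdm6b to Ezh1 plus Ezh2 was -1.77 ± 0.12 in non-stressed saline, -1.98 ± 0.18 in stressed saline and -1.76 ± 0.11 in SHNK (SD, n = 3). The lowest library was at -2.17, in stressed saline, and the highest at -1.63, in non-stressed saline. The group ranges overlapped. For the demethylase pair alone, the log2 ratio of Kdm6b to Kdm6a was -1.23 ± 0.12, -1.03 ± 0.33 and -1.48 ± 0.27, and Kdm6a had more reads in all 9 libraries.

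For the 4 enzymes, the genes with the most similar profile were sought by the root mean square difference of centred log2 CPM over the 9 libraries, among 12324 genes. Closest to Kdm6a were Lrig2 (0.065), Mier3 (0.081) and Etaa1 (0.085), where the median gene was at 0.25. For Kdm6b they were Map2k3 (0.055), Satb1 (0.073) and Epn2 (0.077), with a median of 0.24. Ezh1 was nearest to Ube2h (0.037), Zmym6 (0.040) and Sumf1 (0.044), with a median of 0.20. Ezh2 was nearest to Tmem37 (0.075), Dtwd2 (0.10) and Lrrc29 (0.11), with a median of 0.30. These are descriptions of 9 shared libraries, and no other of the 9 PRC2 and demethylase genes entered the search.

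The wider H3K27 system was described through 7 lists of partners, opposing enzymes and targets, of which 85 of 140 genes were in the table and tested. For stressed saline against non-stressed saline 2 of the 85 rose (2.35%, beside 1.15% of all genes that rose) and 0 fell (0.0165% of all genes). For SHNK against stressed saline 4 fell (4.71%, beside 3.96% of all genes that fell) and 0 rose (2.45% of all genes). For SHNK against non-stressed saline 0 passed. Their median log2 fold changes were -0.04, -0.09 and -0.11.

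PRC2 accessory subunits, which steer the complex to its sites, had 7 of 8 members tested. Of these, 1 rose with stress (1.15% of all genes) and 1 fell in SHNK against stressed saline (3.96% of all genes). Lcorl, whose locus encodes the PRC2 subunit PALI2, rose with stress and was lower with SHNK, and the other 6 did not pass. It was at 7.08, 8.43 and 7.19 CPM in non-stressed saline, 12.2, 18.2 and 12.7 in stressed saline, and 8.41, 7.54 and 8.23 in SHNK. Each stressed saline library was above all others. Its log2 fold change was 0.93 ± 0.16 for stress (adjusted p = 0.0105) and -0.84 ± 0.16 for SHNK against stressed saline (adjusted p = 0.00934), by edgeR. Leaving out replicate 1 of non-stressed saline (adjusted p = 0.0621) or replicate 2 of stressed saline (0.0557) ended the stress call, and leaving out SHNK replicate 2 (0.0565) or 3 (0.0534) ended the SHNK call. Of 13 habenula markers, 10 rose with stress, and for SHNK against stressed saline 12 fell and 1 rose. With the mean of those markers as a covariate, the Lcorl changes were 0.45 and -0.01 and neither passed. That mean itself differs between the groups (3.24 ± 0.54, 5.24 ± 0.77 and 1.74 ± 0.29 log2 CPM, SD, n = 3). A fit with it therefore cannot separate marker level from group, and almost no gene of all those tested passed in either comparison.

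Among 11 of 65 classical Polycomb-silenced regulators that were tested, Msx1 rose with stress, and Msx1 and Sox9 fell with SHNK against stressed saline. These were 1 of 11, beside 1.15% of all genes that rose, and 2 of 11, beside 3.96% that fell. The untested regulators, all listed Hox genes among them, had no deposited counts. The deposited counts held no zero, so a gene without reads in any library could not appear. The 11 are thus regulators with reads in every library. Msx1, a homeobox factor of the dorsal midline, was at 5.98, 5.39 and 7.09 CPM in non-stressed saline, 12.7, 15.1 and 13.1 in stressed saline, and 9.36, 5.57 and 5.02 in SHNK. Its log2 fold change was 1.15 ± 0.21 (adjusted p = 0.0139) and -1.03 ± 0.20 (adjusted p = 0.0118) by edgeR. The first call needed replicates 1 and 2 of non-stressed saline and replicate 2 of stressed saline (adjusted p = 0.0680 to 0.0770 when any of them was left out). The SHNK call needed replicate 2 of stressed saline and SHNK replicates 2 and 3 (0.0511 to 0.0752). Of 10 ependymal markers, 8 rose with stress and 7 fell with SHNK against stressed saline, and their part in the Msx1 values was not tested. With the habenula covariate, which cannot be separated from group, Msx1 was at 0.47 and 0.15, neither past the threshold.

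Sox9, a transcription factor of astrocytes and their progenitors, was at 81.6, 66.5 and 81.5 CPM in non-stressed saline, 94.2, 84.9 and 73.0 in stressed saline, and 57.2, 49.7 and 52.3 in SHNK. Every SHNK library was below the 6 others. The log2 fold change against stressed saline was -0.66 ± 0.11 (adjusted p = 0.00525, edgeR) and held without any 1 library. Against non-stressed saline it was -0.53 ± 0.11 (adjusted p = 0.0720). With the habenula covariate the value against stressed saline was -0.65 and did not pass, in a fit where almost no gene did. Of 10 astrocyte markers 5 fell in SHNK against stressed saline and 0 rose, and their part in the Sox9 value was not tested.

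PRC1, a Polycomb complex of which some forms bind the H3K27 mark and compact chromatin, had 26 members tested. Phc1, its polyhomeotic subunit, fell in SHNK against stressed saline (1 of 26, beside 3.96% of all genes) and the other 25 did not pass. It was at 20.0, 18.2 and 20.7 CPM in non-stressed saline, 21.9, 18.5 and 20.3 in stressed saline, and 15.5, 12.9 and 13.0 in SHNK, where every library was below the rest. Its log2 fold change was -0.55 ± 0.11 (adjusted p = 0.0142, edgeR), and -0.51 ± 0.11 against non-stressed saline (adjusted p = 0.0795). The call ended when replicate 1 of stressed saline (adjusted p = 0.0541), SHNK replicate 2 (0.0815) or SHNK replicate 3 (0.0842) was left out. It also ended with the habenula covariate (-0.62), in a fit where almost no gene passed.

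The other 4 lists had 0 members past the threshold in each comparison. They were 9 partners of Kdm6a in the MLL3 and MLL4 complexes, 3 other demethylases, 14 genes of H3K27 acetylation and NuRD, and 15 of further complexes with Rbbp4 or Rbbp7. Kmt2d, the MLL4 methyltransferase, had a log2 fold change of -0.38 ± 0.12 for SHNK against non-stressed saline (adjusted p = 0.123), and Paxip1, an adaptor of that complex, -0.34 ± 0.12 against stressed saline (adjusted p = 0.107). The NuRD remodeller Chd3 had -0.43 ± 0.11 (adjusted p = 0.0888) and the NuRD scaffold Gatad2a -0.44 ± 0.13 (adjusted p = 0.108), both against non-stressed saline. Hat1, a histone acetyltransferase that works with Rbbp7, had 0.39 ± 0.10 in that comparison (adjusted p = 0.0921). Chaf1a, the large subunit of CAF-1, had -0.44 ± 0.16 against stressed saline (adjusted p = 0.125). The demethylases Kdm7a and Phf8 had adjusted p of 0.374 or more in all comparisons, and all these values are from edgeR.

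**Figure D4:**
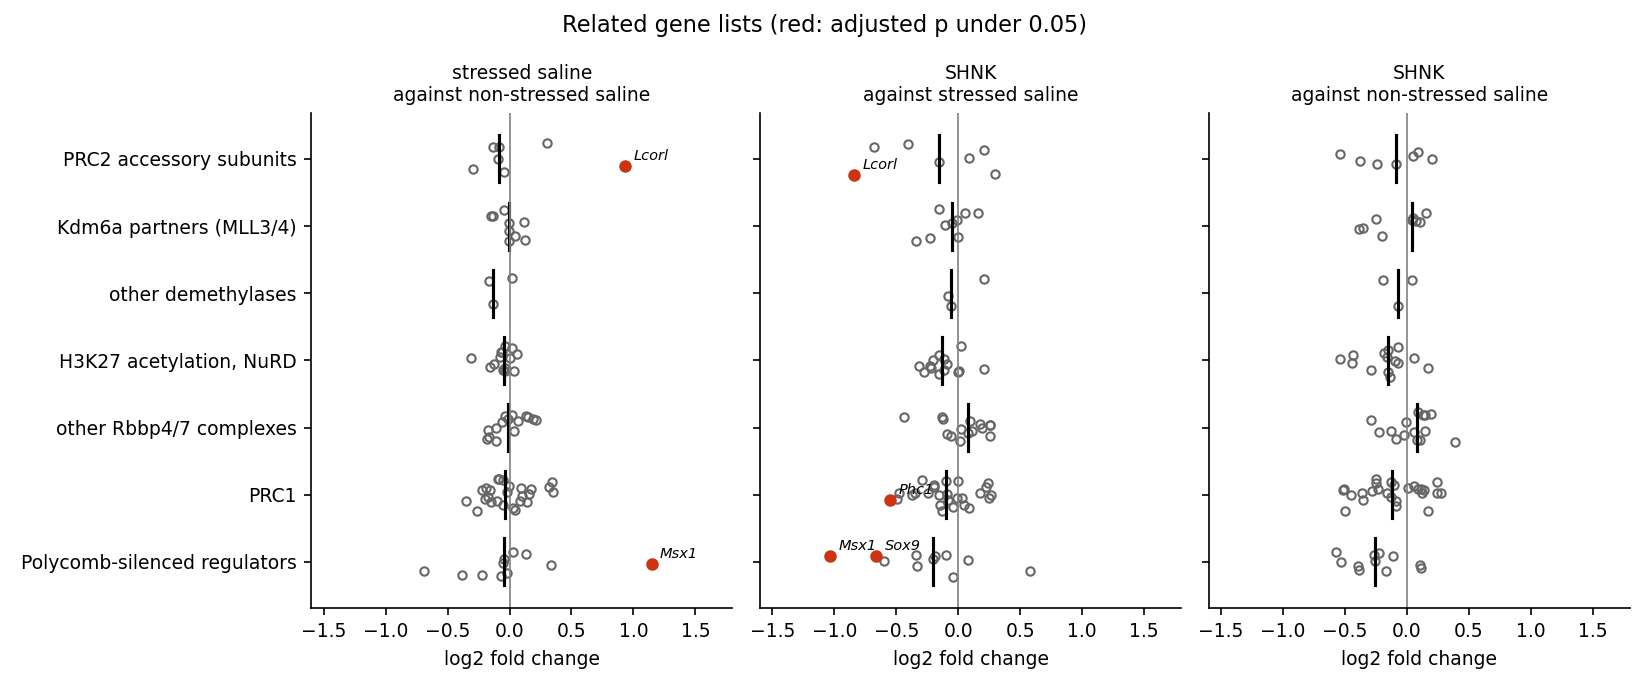
Log2 fold changes of the tested genes in 7 related lists for each comparison; filled red circles passed an adjusted p of 0.05 and black bars are list medians. Lcorl and Msx1 stand to the right after stress (0.93 and 1.15), and these with Sox9 and Phc1 stand to the left for SHNK against stressed saline.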

How the data were processed

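The authors deposited raw counts, 1 whole number per symbol and library; the lowest was 1 and 0 genes held a zero. Per the submitters' processing notes, the tools were Trimmomatic 0.38, HISAT2 and StringTie and the build GRCm38 (mm10). Genes were kept by filterByExpr (minimum count 10, total 15), leaving out 762. Counts were scaled with TMM and fitted over 3 groups with edgeR 4.0.16 (R 4.3.3), with Benjamini-Hochberg adjustment over 18194 genes and a threshold of 0.05. CPM are TMM-scaled, and log2 CPM used a prior count of 2. The common biological coefficient of variation was 0.132. Alternatives included DESeq2 1.42.0, limma 3.58.1 voom, other scalings, filters and thresholds, marker covariates, a replicate block and leaving out each library. The fit was run on simulated counts with the same spread for all genes. They held no shift in cell types, so that run does not speak to such shifts. Among pairs of libraries within a group, the counts of each pair differed by more than sampling noise.

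The members and lists were chosen with earlier results of these data known. All 9 genes were named, then list genes past the threshold (up to 4 per list and comparison), or the 2 with the smallest p, and the 3 genes most like each enzyme. Uty was always given. Intervals are 95% intervals of the edgeR coefficients.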

Additional observations from a re-analysis of the deposited data

How the results depend on the processing

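Of 27 fold changes (9 genes in 3 comparisons), 12 alternatives that kept all libraries gave 324 values. Among them, an adjusted p of 0.1 and an unadjusted p of 0.05 changed only the threshold. Their values are the main estimates again, so their direction could not change. Direction and side of the threshold held in 310, 12 reversed and 2 passed only at an unadjusted p of 0.05 (Rbbp7, 0.16 and 0.18). That threshold moved the count of the 9 genes called from 0 to 1 for SHNK against stressed saline, for SHNK against non-stressed saline and for any difference. The smallest adjusted p over these alternatives was 0.151 (Rbbp7, SHNK against non-stressed saline, DESeq2). Nearly all reversals came with the habenula marker mean as covariate, for which the groups differ (3.24 ± 0.54, 5.24 ± 0.77 and 1.74 ± 0.29 log2 CPM; SD, n = 3). It gave 0.015, -0.076 and -0.062 for Kdm6a and 0.069, -0.071 and -0.0026 for Suz12 in the 3 comparisons. It gave -0.32 and -0.018 for Eed in both SHNK comparisons, -0.011 for Rbbp7 against stressed saline and -0.12 for Ezh2 against non-stressed saline. That Ezh2 value was also -0.011 with voom and -0.011 with the oligodendrocyte covariate. Msx1, which is not among the 9 genes, also reversed with the habenula covariate, to 0.15 against stressed saline. The cause was not tested.

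Leaving out 1 library gave 243 values, of which 232 held, 11 reversed and 0 passed (smallest adjusted p 0.167, Rbbp7). Some of them left out a library of the group outside the comparison. Those kept every compared library, so their direction could hardly change. The reversals lay in ranges around 0. They were -0.25 to 0.057 (stress) and -0.017 to 0.29 (SHNK against stressed saline) for Kdm6a, -0.025 to 0.15 for Kdm6b after stress, -0.031 to 0.11 for Eed after stress and -0.014 to 0.041 for Rbbp7 after stress. For SHNK against non-stressed saline they were -0.11 to 0.023 for Ezh1 and -0.058 to 0.12 for Ezh2.

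Related genes called were 2, 4 and 0 in the 3 comparisons. Unadjusted p gave 5, 20 and 19 of 85, beside 9.45%, 23.3% and 18.3% of all genes. An adjusted p of 0.1 gave 7 and 6 for SHNK against stressed and non-stressed saline, beside 2182 and 520 of the 18194 genes. The habenula covariate gave 0 after stress (0 of all genes) and 0 for SHNK against stressed saline (1 of all genes). Voom gave 9 for SHNK against stressed saline (2377 of all genes) and DESeq2 8 for SHNK against non-stressed saline (806 of all genes). Without 1 library the counts were 0 to 2, 1 to 5 and 0 to 6. With the longest transcript, Suz12 moved to place 5 and Jarid2 to place 6. Replicate numbers did not pair the libraries (2 of 9 correlated best with their own number). The replicate block called 0 of the 9 genes in each comparison and moved the count over all genes from 213, 1167 and 1 to 177, 878 and 6.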
